A study of Homo sapiens with 6 samples.

Results

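The 8 genes described here encode DNMT1, the maintenance DNA methyltransferase, and proteins that work with it: DNMT3A, DNMT3B, UHRF1, UHRF2, HELLS, PCNA and USP7. They were chosen by gene name, and all 8 had a row in both deposited tables of FPKM (fragments mapped to a gene, relative to the length of its transcript and to all mapped fragments), out of 14270 gene identifiers that both tables listed. The labels described 6 RNA samples of U2OS, an established human osteosarcoma cell line. Knockdown cells carrying a hairpin against DNMT1 (shDNMT1) gave 1 input and 2 samples of RNA pulled down with mutant NSun2, an RNA cytosine methyltransferase. Control cells (shNC) gave 1 input and 2 such immunoprecipitates. The treatment protocol given for every sample was transfection of the NSun2 mutant plasmid into both kinds of cell, although the treatment label of the inputs reads no. The hairpin sequence and the number of knockdown clones were not stated in the labels.

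Neither table names a sample, a genotype, or input against immunoprecipitate in its header. They are called here by their length, the longer with 16824 identifiers and the shorter with 15167, and no genotype was assigned to either, also not from the level of DNMT1 itself. For that reason neither shDNMT1 and shNC cells nor immunoprecipitates and inputs were compared. Each table gives a gene a single unreplicated value, so no SD or test can be had, and a difference below is one between these tables. In bulk RNA, fewer cells expressing a gene and less RNA of it per cell cannot be told apart.

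When DNA is replicated, the new strand is made without methyl groups. UHRF1 recognises the hemimethylated sites left behind and brings DNMT1 to them. PCNA, the sliding clamp of the replication fork, also binds DNMT1, and USP7 removes ubiquitin from DNMT1 and UHRF1. UHRF2, the paralog of UHRF1, does not replace it in this role. HELLS is a chromatin remodeller needed for normal DNA methylation, and DNMT3A and DNMT3B are the enzymes that place methyl groups on unmethylated DNA. Several of these genes are transcribed most strongly around S phase by E2F factors.

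The RefSeq promoter table (GRCh38.p14) held 18 windows for the 8 genes, each of 300 bases, 250 before and 50 after a transcription start. Windows of 1 gene can overlap. They were searched on both strands for the E2F-type words TTTCCCGC, TTTGGCGC, TTTCGCGC and TTTGCCGC. A word was present in 5 windows, belonging to DNMT1, HELLS, PCNA and UHRF1, against 3.31% of all 35116 windows of that length in the table. A match describes the letters only. The data hold no measurement at these promoters. The 5 windows are shown because they held a word. Their genes include DNMT1, the target of the knockdown, HELLS, the member with the highest ratio between the tables, and PCNA and UHRF1, the most abundant pair. Each is written 5′ to 3′ on the gene's strand, with the words or their reverse complements in capitals.
DNMT1, chr19:10194904-10195203 (minus strand): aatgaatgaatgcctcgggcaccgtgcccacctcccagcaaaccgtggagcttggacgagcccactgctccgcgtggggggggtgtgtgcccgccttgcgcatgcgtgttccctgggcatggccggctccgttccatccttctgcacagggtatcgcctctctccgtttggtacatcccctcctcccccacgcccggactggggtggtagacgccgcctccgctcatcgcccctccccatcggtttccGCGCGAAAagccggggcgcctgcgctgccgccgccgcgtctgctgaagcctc
HELLS, chr10:94545538-94545837 (plus strand): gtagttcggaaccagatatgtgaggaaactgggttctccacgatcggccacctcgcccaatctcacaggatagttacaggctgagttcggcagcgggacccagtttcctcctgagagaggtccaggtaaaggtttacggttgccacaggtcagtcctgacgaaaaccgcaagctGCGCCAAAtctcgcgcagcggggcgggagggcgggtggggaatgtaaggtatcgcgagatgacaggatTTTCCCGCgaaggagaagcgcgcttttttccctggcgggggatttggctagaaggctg
PCNA, chr20:5126573-5126872 (minus strand): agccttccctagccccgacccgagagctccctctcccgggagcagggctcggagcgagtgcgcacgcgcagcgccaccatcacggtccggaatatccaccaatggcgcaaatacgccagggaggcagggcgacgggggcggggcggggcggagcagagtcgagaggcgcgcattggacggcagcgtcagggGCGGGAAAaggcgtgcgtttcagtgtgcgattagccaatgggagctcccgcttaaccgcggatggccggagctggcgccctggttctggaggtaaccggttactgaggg
UHRF1, chr19:4909251-4909550 (plus strand): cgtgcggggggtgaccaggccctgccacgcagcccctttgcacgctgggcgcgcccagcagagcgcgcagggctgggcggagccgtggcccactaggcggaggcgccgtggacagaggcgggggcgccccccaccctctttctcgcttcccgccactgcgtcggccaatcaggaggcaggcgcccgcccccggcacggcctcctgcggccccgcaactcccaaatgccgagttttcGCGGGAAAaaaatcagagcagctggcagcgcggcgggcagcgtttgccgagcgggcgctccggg
UHRF1, chr19:4909894-4910193 (plus strand): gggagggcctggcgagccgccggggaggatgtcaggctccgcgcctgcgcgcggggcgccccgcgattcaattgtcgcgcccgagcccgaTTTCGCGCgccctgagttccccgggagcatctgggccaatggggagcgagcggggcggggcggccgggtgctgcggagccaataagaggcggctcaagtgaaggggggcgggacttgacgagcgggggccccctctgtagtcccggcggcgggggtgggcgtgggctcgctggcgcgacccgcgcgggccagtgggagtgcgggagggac
HELLS had 2 such words in its only window and DNMT1 had 1. PCNA had 1 word in 1 of its 2 windows, and UHRF1 had 1 word in each of 2 of its 3 windows. No word was found in the windows of DNMT3A, DNMT3B, UHRF2 and USP7. The only DNMT3B window belongs to a start at 32779852, inside the gene, whose RefSeq interval begins at 32762385. The RefSeq interval of UHRF1 begins at 4903080, and its first window belongs to a start at 4909501. For these genes the sequence at the outermost start was thus not searched.

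PCNA and UHRF1 were the most abundant of the 8 in both tables. PCNA was listed at 52.7 FPKM in the longer table and 46.6 FPKM in the shorter, and UHRF1 at 49.8 FPKM in the longer and 45.4 FPKM in the shorter. FPKM is scaled by transcript length, so listed levels can be set side by side between genes of a table. Whether a table stands for input or immunoprecipitate is unknown. In an immunoprecipitate a level also reflects capture with NSun2, so abundance here means the listed FPKM only. In the longer table the order then ran HELLS, USP7, DNMT1, DNMT3B, UHRF2 and DNMT3A. In the shorter table it ran DNMT1, HELLS, DNMT3B, USP7, UHRF2 and DNMT3A. DNMT1 thus stood at place 5 in the longer table and at place 3 in the shorter. Because there is no replicate, it cannot be said which neighbours in either order differ beyond their spread. USP7, DNMT1 and DNMT3B lay close together in the longer table, and HELLS, DNMT3B and USP7 in the shorter. The highest of the 8 exceeded the lowest 108-fold in the longer table and 35.9-fold in the shorter, a range set by DNMT3A at the low end.

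**Figure D1:**
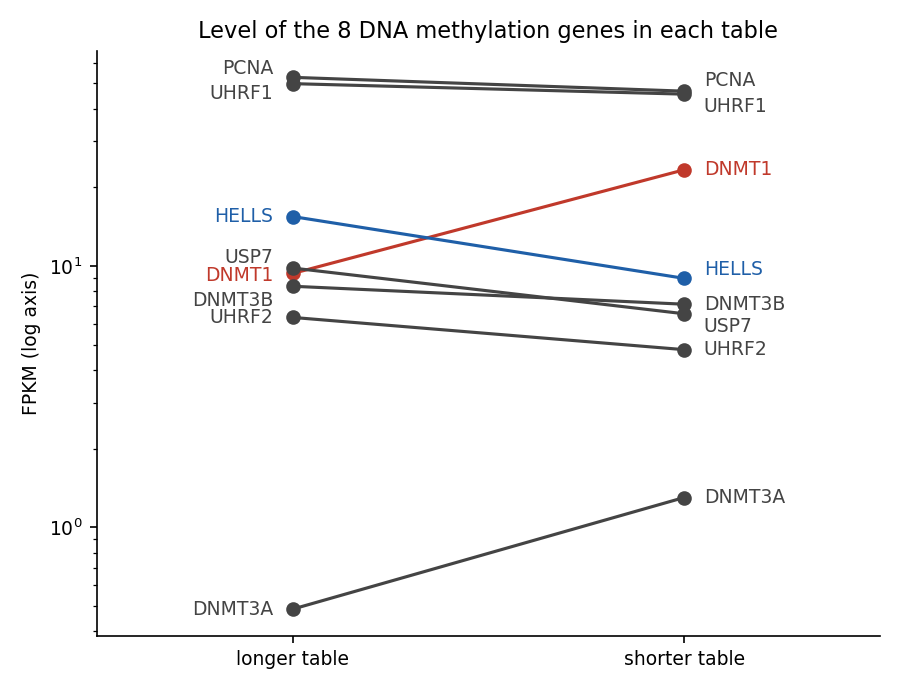
FPKM of each of the 8 genes (log axis) in the longer and the shorter table, 1 value per gene and table, joined by a line. DNMT1 (red) lies at 9.36 FPKM in the longer table and 23.3 FPKM in the shorter, while HELLS (blue) lies at 15.4 FPKM and 8.96 FPKM.

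DNMT1 (ENSG00000130816; chromosome 19, 10133345 to 10231286, hg38) was listed at 9.36 FPKM in the longer table and 23.3 FPKM in the shorter. Its level in the longer table was 0.401 times that in the shorter. As log2(FPKM + 1) the ratio of longer over shorter was -1.23, and 1 of the 8 members, DNMT1, passed 2-fold on this scale. Of all 14270 genes 1.68% were at least 2-fold lower in the longer table on that scale and 2.04% at least 2-fold higher. Of the 7135 genes whose mean level was above the median of 4.93 FPKM, the shares were 0.869% and 1.7%. DNMT1 ranked 5285th among the shared genes in the longer table and 2640th in the shorter. Among the 3584 other genes whose mean level lay within 2-fold of that of DNMT1, 11 had a lower ratio and 3573 a higher one, with a median of 0.10. In that set 0.837% were at least 2-fold lower and 1.73% at least 2-fold higher in the longer table. The rank is a description and carries no test.

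**Figure D2:**
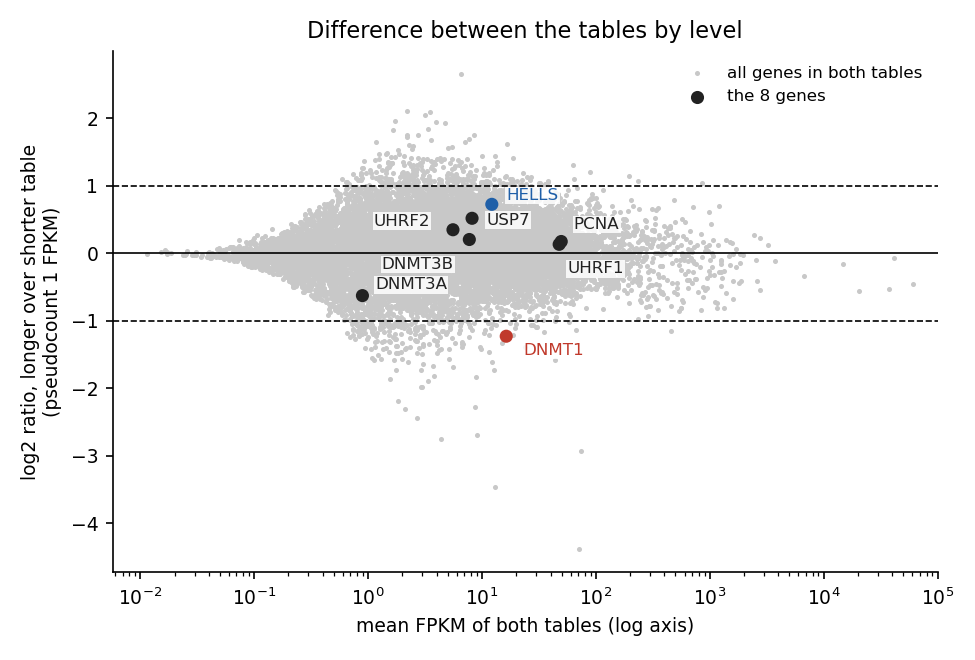
Log2 ratio of the longer over the shorter table (pseudocount 1 FPKM) against mean FPKM (log axis) for 14270 genes (grey) and the 8 genes (large points); dashed lines mark 2-fold. DNMT1 at -1.23 lies beyond the lower line, and the other 7 lie between the lines.

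The interval listed for DNMT1 also covers S1PR2, a receptor for sphingosine-1-phosphate, and the RefSeq annotation places DNMT1 itself at 10133346 to 10194953. S1PR2 was listed at 2.54 FPKM in the longer table and 3.71 FPKM in the shorter, a log2 ratio of -0.41. The sources used here do not say how fragments of such a joint interval were divided between its genes.

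The DNMT1 ratio also stood apart from those of its chromosomal neighbours on 19p. Above the median level, 29 other genes had a locus starting within 1 Mb of that of DNMT1. All 29 had a higher ratio than DNMT1, with a median of -0.06 and a range of -0.94 to 0.54, so DNMT1 lay 1.17 below their median on the log2 scale. Nearest to it in ratio was SLC44A2, a choline transporter-like protein, listed at 20.6 FPKM in the longer table and 40.4 FPKM in the shorter, a log2 ratio of -0.94. ATG4D, a protease of autophagy, had 10.3 FPKM in the longer and 18.9 FPKM in the shorter, and SPC24, a kinetochore subunit, had 25.9 FPKM in the longer and 38.3 FPKM in the shorter. UHRF1, on the same chromosome arm, gave another picture. Its ratio was higher than that of 28 of its 32 neighbours, whose median was -0.18. Among the 2038 other genes within 2-fold of its level the UHRF1 ratio was not extreme, as 38.2% had a higher one. Standing below every neighbour was not particular to DNMT1. DNMT3A, listed at a far lower level, also had a lower ratio than all 6 of its neighbours, 0.96 below their median of 0.33. Several neighbours share 1 locus interval, so they are not independent points.

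**Figure D3:**
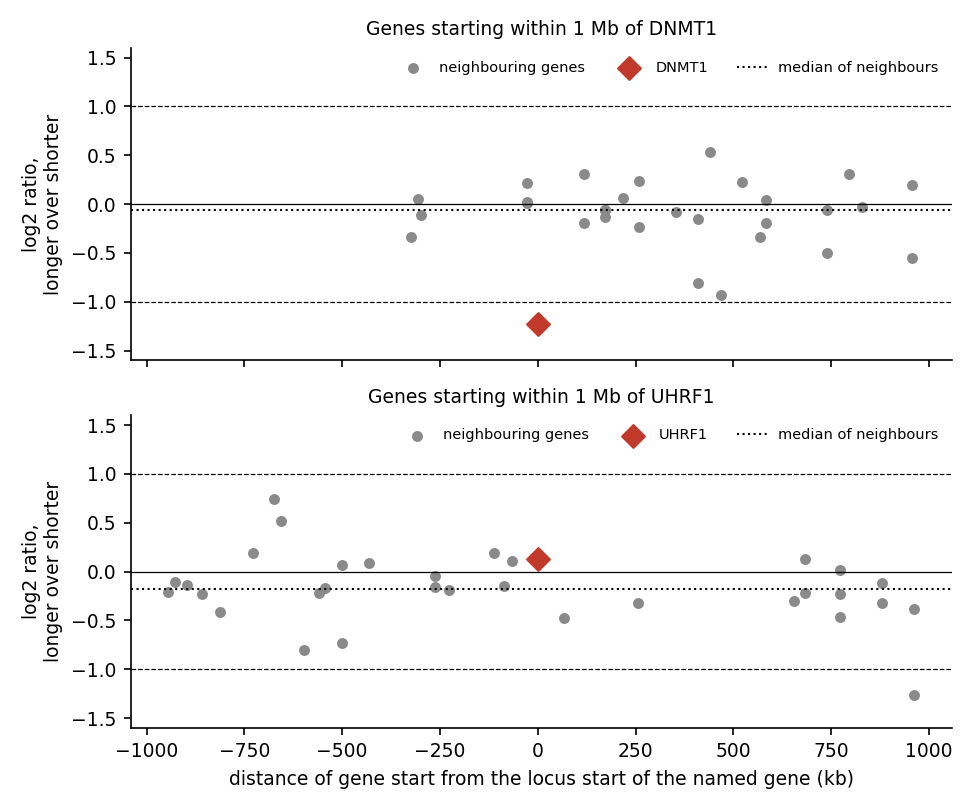
Log2 ratio of longer over shorter table for genes above the median level, by distance of the locus start (kb) from that of DNMT1 (top) and UHRF1 (bottom). The red diamond is the named gene, grey points are neighbours and the dotted line is their median; DNMT1 lies below all 29 neighbours and UHRF1 above 28 of 32.

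The 5 genes whose pair of levels was closest to that of DNMT1, by Euclidean distance on log2(FPKM + 1) over the 2 tables, were SSBP3, SELENBP1, ME3, TBXA2R and FBXL19. SSBP3, a single-stranded DNA-binding protein, was listed at 9.61 FPKM in the longer table and 23.4 FPKM in the shorter, at a distance of 0.035. SELENBP1, a selenium-binding protein, was listed at 8.08 FPKM in the longer and 21.8 FPKM in the shorter, at a distance of 0.212. FBXL19 lay at 0.259. The likeness rests on 2 values per gene.

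The genes of the proteins that bring DNMT1 to replicating DNA were under 2-fold apart between the tables, like most genes. Of all 14270 genes 1.68% were at least 2-fold lower and 2.04% at least 2-fold higher in the longer table. UHRF1 (ENSG00000276043; chromosome 19, 4903080 to 4962154) had a log2 ratio of 0.13, and PCNA (ENSG00000132646; chromosome 20, 5114953 to 5126626) one of 0.17. A quotient of 2 genes within a table does not depend on how that table was scaled. The level of UHRF1 divided by that of PCNA was 0.946 in the longer table and 0.974 in the shorter. That of DNMT1 divided by UHRF1 was 0.188 in the longer table and 0.513 in the shorter, and that of DNMT1 divided by PCNA was 0.178 in the longer and 0.5001 in the shorter. UHRF1 and PCNA thus kept nearly the same proportion to each other in both tables, while DNMT1 was lower relative to both in the longer one.

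UHRF2 (ENSG00000147854; chromosome 9, 6413151 to 6507054) was listed at 6.35 FPKM in the longer table and 4.78 FPKM in the shorter, a log2 ratio of 0.35. UHRF1 exceeded its paralog 7.85-fold in the longer table and 9.50-fold in the shorter. USP7 (ENSG00000187555; chromosome 16, 8892094 to 8966990), the deubiquitinase, was listed at 9.81 FPKM in the longer and 6.56 FPKM in the shorter, a log2 ratio of 0.52. Of the genes within 2-fold of its level 20.4% had a higher ratio. The level of DNMT1 divided by that of USP7 was 0.954 in the longer table and 3.56 in the shorter. DNMT1 was thus listed well above USP7 in the shorter table. In the longer table they lay close together, and their order there cannot be told without replicates. A further identifier at the USP7 locus, RP11-77H9.8, had a row in the longer table only, at 0.816 FPKM.

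HELLS (ENSG00000119969; chromosome 10, 94402504 to 94613905) had the highest ratio of the 8. It was listed at 15.4 FPKM in the longer table and 8.96 FPKM in the shorter, a fold of 1.72 and, with the pseudocount, a log2 ratio of 0.72, under 2-fold. Of the 3862 other genes within 2-fold of its level, 327 (8.47%) had a higher ratio. HELLS shares its listed interval with TBC1D12, a protein with a Rab GTPase-activating domain, which was listed at 3.31 FPKM in the longer table and 2.38 FPKM in the shorter. The level of DNMT1 divided by that of HELLS was 0.606 in the longer table and 2.60 in the shorter.

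The de novo enzymes were less abundant than DNMT1 in both tables, and their ratios lay on opposite sides of zero. DNMT3B (ENSG00000088305; chromosome 20, 32762385 to 32809356) was listed at 8.36 FPKM in the longer table and 7.13 FPKM in the shorter, a log2 ratio of 0.20. DNMT3A (ENSG00000119772; chromosome 2, 25227855 to 25342590) was listed at 0.486 FPKM in the longer and 1.30 FPKM in the shorter. The DNMT3A log2 ratio was -0.63 with a pseudocount of 1 FPKM and -1.42 without one, so whether it passed 2-fold depended on the pseudocount. Of the 2705 other genes within 2-fold of its level, 12.2% had a lower ratio. How many fragments lie behind so low a value is unknown. DNMT3B exceeded DNMT3A 17.2-fold in the longer table and 5.49-fold in the shorter. The level of DNMT1 divided by that of DNMT3B was 1.1 in the longer table and 3.27 in the shorter, while DNMT1 divided by DNMT3A gave 19.2 in the longer and 18.0 in the shorter.

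Of the 8 genes 6 were higher in the longer table and DNMT1 and DNMT3A were lower, with a median log2 ratio of 0.19. Over all shared genes 54.8% were higher in the longer table and the median was 0.05. Rescaling the tables by any of the 3 ways tried moved all ratios by at most 0.09 on the log2 scale and left the sign of all 8 as it was.

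Genes of the wider pathway were described from 4 lists. With the pseudocount, 1.68% of all 14270 genes were at least 2-fold lower in the longer table and 2.04% at least 2-fold higher. Lists this short may therefore hold no such gene, and its absence says little about them. The share of all genes without the pseudocount was not computed. The clamp loader and replication partners had 12 of 12 genes in both tables, 10 higher and 2 lower in the longer table, none by 2-fold with or without the pseudocount, with a median log2 ratio of 0.10. FEN1, the flap endonuclease of lagging-strand synthesis and the most abundant of the list, was listed at 56.1 FPKM in the longer table and 44.2 FPKM in the shorter. It shares its locus with 6 other identifiers. PCLAF, a PCNA-binding factor that the files call KIAA0101, had 47.3 FPKM in the longer and 31.1 FPKM in the shorter. The lower genes were POLD1 and LIG1. POLD1, the catalytic subunit of DNA polymerase delta, was listed at 32.7 FPKM in the longer table and 53.8 FPKM in the shorter, a log2 ratio of -0.70. LIG1, the ligase of Okazaki fragments, was listed at 8.97 FPKM in the longer and 11.6 FPKM in the shorter.

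The chromatin and repressor partners had 15 of 15 genes in both tables, 8 higher and 7 lower in the longer table, none by 2-fold with or without the pseudocount, with a median log2 ratio of 0.08. The sign of that median turned among list genes sharing no locus, where it was -0.04. KDM1A, a histone demethylase and the most abundant of the list, was listed at 63.1 FPKM in the longer table and 48.3 FPKM in the shorter. CBX5, the heterochromatin protein HP1 alpha, had 23.2 FPKM in the longer and 13.4 FPKM in the shorter, a log2 ratio of 0.75. SUZ12, a subunit of the Polycomb complex PRC2, had 4.23 FPKM in the longer and 6.63 FPKM in the shorter, and EZH2, the catalytic subunit of that complex, 6.22 FPKM in the longer and 3.80 FPKM in the shorter. E2F1, one of the E2F factors, was listed at 29.5 FPKM in the longer table and 36.3 FPKM in the shorter.

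The other methylation factors had 5 of 6 genes in both tables, 2 higher and 3 lower in the longer table, with a median log2 ratio of -0.19. SMCHD1, a chromatin protein of the inactive X chromosome, was listed at 3.01 FPKM in the longer and 6.16 FPKM in the shorter, a log2 ratio of -0.83 with the pseudocount. Without it the SMCHD1 level in the longer table was 0.489 times that in the shorter, past 2-fold, and with it no gene of the list passed. How many of all genes passed without the pseudocount was not computed. CDCA7, which works with HELLS, was listed at 12.7 FPKM in the longer table and 9.57 FPKM in the shorter. Its paralog CDCA7L, the most abundant of the list, had 14.7 FPKM in the longer and 16.9 FPKM in the shorter. DNMT3L, the catalytically inactive partner of the de novo enzymes, had a row in the longer table only, at 0.186 FPKM.

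**Figure D4:**
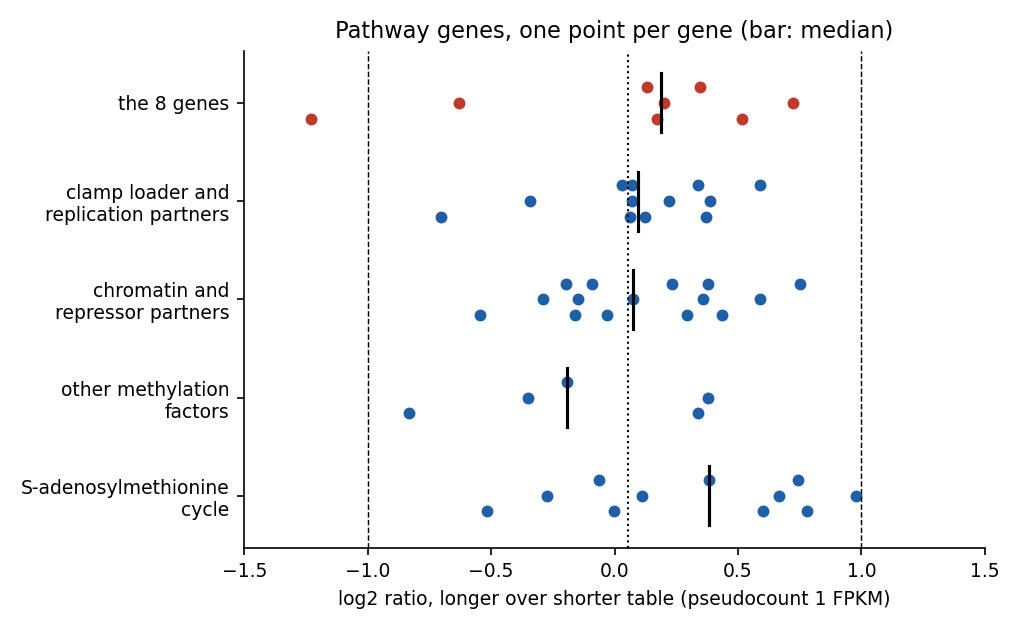
Log2 ratio of longer over shorter table, 1 point per gene, for the 8 genes (red) and the 4 pathway lists (blue); points are offset vertically only to separate them, the bar is the list median, the dotted line is the median of all genes (0.05) and dashed lines mark 2-fold. DNMT1 at -1.23 is the point beyond 2-fold on this scale, which includes the pseudocount of 1 FPKM.

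Cell identity markers also differed between the tables, and their part in the differences above was not tested. Of 8 osteoblast and bone matrix markers 4 had a row in the longer table and 2 in the shorter, and SP7, SPP1, IBSP and COL1A2 had a row in neither. Their summed level was 39.4 FPKM in the longer table and 81.4 FPKM in the shorter. Most of it came from the alkaline phosphatase ALPL, at 38.0 FPKM in the longer and 78.4 FPKM in the shorter. The sum thus describes that gene rather than the list, and is no measure of osteoblast identity. RUNX2, the transcription factor that defines osteoblasts, was listed at 0.806 FPKM in the longer table only, and BGLAP at 0.144 FPKM in that table only. COL1A1 went the other way, with 0.451 FPKM in the longer and 3.04 FPKM in the shorter, a log2 ratio of -1.48. The mesenchymal markers VIM and CDH2 summed to 423 FPKM in the longer and 269 FPKM in the shorter. The epithelial markers EPCAM and CDH1 were both listed, summing to 0.946 FPKM in the longer table and 10.6 FPKM in the shorter. CDH1, E-cadherin, accounted for most of the sum in the shorter table only, with 0.392 FPKM in the longer and 8.42 FPKM in the shorter. EPCAM was listed at 0.555 FPKM in the longer, above CDH1 there, and 2.20 FPKM in the shorter. Leukocyte and hepatocyte markers had no row, and of the endothelial pair VWF was listed, at no more than 0.202 FPKM.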

How the data were processed

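The labels described 6 RNA samples in 4 groups, and the deposited values analysed were FPKM per gene, in a pair of tables. FPKM was computed and deposited by the authors, per the file headers, with an identifier, a gene name and a locus. No header or label says which tool computed it. MACS 1.4.2, BWA 0.7.13, cutadapt 1.12 and the build hg38 appear in the submitters' processing notes, with no role. Since FPKM is relative to a total, abundant RNAs move all other values. Of all identifiers 47.5% shared their locus string with another, and fragments there could be divided upstream.

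The ratio was log2((longer + 1)/(shorter + 1)), with a pseudocount of 1 FPKM, which understates differences of low genes. Locus starts were read as counted from 0 and are printed counted from 1. Absolute depth is unknown. Among 2354 genes under 1 FPKM in both tables, log2 ratios piled up near -1.1 (154 genes in a bin of 0.1) and -0.1 (135 genes). Read as 1 fragment against 1, these put the depth of the longer at 2.14 or 1.07 times that of the shorter, and which holds was not settled. Replicates, SDs and tests could not be had, and the design for labelled groups was not used.

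Named were the 8 genes, identifiers at their loci, the 5 genes nearest to DNMT1, up to 3 neighbours on each side of its ratio (none lay below it), and from each list the most abundant member and any at least 2-fold apart. Other list genes were chosen after their values were seen. The members and lists were chosen with earlier results of these data known. Calculations used Python 3.11.15, pandas 2.3.3, numpy 2.4.6 and matplotlib 3.10.9, and the ratio and counts were tested on simulated data.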

Additional observations from a re-analysis of the deposited data

How the results depend on the processing

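No paired analysis was possible because no column carries a sample name or replicate number, and leaving out replicates could not be run for the same reason. With no spread to compare with, a value is said to have moved when it crossed 2-fold or shifted by more than 1.5-fold. Of 85 recomputed values 76 did neither and 9 moved. Part of the 76 could not have moved, so the tally does not measure robustness. No member had a further identifier of its name, so summing such identifiers changed nothing. Rescaling shifted ratios by at most 0.09 on the log2 scale. DNMT3A moved to -1.26 with a pseudocount of 0.1 FPKM and to -1.42 with none, by construction since a smaller pseudocount enlarges ratios of low genes. Above the median level 121 genes were 2-fold or more higher in the longer table and 62 lower. Without the level filter these counts were 291 and 240, from 10 FPKM upwards 58 and 31, and at unshared loci 69 and 24, where more or fewer genes enter. The smaller pseudocount raised both counts, to 179 higher and 97 lower. DNMT1 ranged from -1.32 to -1.23 over its settings, and HELLS from 0.64 to 0.79. No value past 2-fold changed sign. Among smaller values, 3 did: the chromatin list median (-0.04 for genes sharing no locus), DNMT3B against its neighbours (0.06 within 2 Mb, -0.13 within 1 Mb) and PCNA against its neighbours (-0.24 within 0.5 Mb, 0.18 within 1 Mb). Neighbours within 0.5 Mb could not be had for UHRF2 and HELLS. Ratios of low genes are limited by the unknown depth.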

Other observations

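Genes of the S-adenosylmethionine cycle, which supplies the methyl group that DNMT1 transfers, had 11 of 12 members in both tables, 7 higher and 4 lower in the longer table. None passed 2-fold with the pseudocount of 1 FPKM, where 1.68% of all genes were at least 2-fold lower and 2.04% at least 2-fold higher. Without it MAT2B (2.05-fold) and AHCYL2 (2.21-fold) did. The share of all genes past 2-fold without the pseudocount was not computed, so nothing can be set beside these folds. Their median log2 ratio was 0.38, against 0.05 for all genes. For the 4 members sharing no locus it was 0.76, against 0.07 for the 7603 such genes in all. MAT2A, which makes S-adenosylmethionine, was listed at 117.6 FPKM in the longer table and 73.7 FPKM in the shorter. MAT2B, its regulatory subunit, was listed at 24.6 FPKM in the longer and 12.0 FPKM in the shorter, a log2 ratio of 0.98. AHCY, the hydrolase that removes the product of methylation and the most abundant of the list, was listed at 174 FPKM in the longer table and 211 FPKM in the shorter. SHMT2, a mitochondrial enzyme of one-carbon supply, had 127.7 FPKM in the longer and 183 FPKM in the shorter. MAT2A and MAT2B were thus higher in the longer table and AHCY lower, each from 1 value per table. The AHCY-like genes AHCYL1 (log2 ratio 0.78) and AHCYL2 (0.74) were higher in the longer table as well. BHMT had a row in neither table.

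The promoter windows of the 8 genes varied widely in CpG, the dinucleotide that DNMT1 methylates. The DNMT1 window held 30 CpG, a number that 22.4% of all windows in the RefSeq table reach, and the HELLS window held 22, against a median of 14 over all windows. The only DNMT3B window, at a start inside the gene, held 3. One USP7 window held 50 and another 0, so the count depends on which annotated start is taken.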
